A study of Vitis amurensis with 6 samples.

Results

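Transcript levels of 8 chlorophyll a/b-binding protein genes and of the gene of an early light-induced protein (ELIP) were followed in leaves of Vitis amurensis, a wild grape of north-east Asia, before and after a short chill at unchanged light. These 9 genes were picked by a list of identifiers out of 31845 in the deposited table. All 9 were above 0 in every library, and all 9 were among the 17155 genes tested, those whose mean over the libraries reached 1 FPKM, a read count divided by gene length and library size and thus a level per length. The table does not pair identifiers with gene names. The family names come from the description of the list, were not checked against an annotation, and do not say which antenna protein each of the 8 genes encodes.

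Wild-type plants 1 month old, grown in vitro on B5 medium with 0.2 mg/L IBA (an auxin) under 16 h of light and 8 h of dark, gave all the RNA. The control group stayed at 26 °C, and the cold group was held in a prechilled incubator at 4 °C for 2 h. Light was the same for both, near 100 µmol of photons per square metre and second. There are 3 libraries per group. Nothing in the labels says that these came from separate plants, so p-values measure the spread between libraries, which may be technical. The hour of sampling is not given, so temperature, the passing of time and the move to another incubator cannot be told apart. Marker genes of leaf cell types could not be picked out without gene names, so the tissue label was not checked.

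Chlorophyll a/b-binding proteins hold most of the chlorophyll of the thylakoid membrane and pass absorbed light energy to the photosystems. Their genes lie in the nucleus, are transcribed mainly in green tissue, and are known from Arabidopsis and other plants to follow light and the circadian clock. ELIPs belong to the same protein superfamily, but they accumulate under light stress and are thought to bind free pigment and protect the membrane rather than to harvest light. In Arabidopsis, pea and barley, ELIP transcripts rise under strong light and in cold combined with light.

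The ELIP gene fell strongly in the cold, whereas 1 of the 8 antenna genes was called lower and 7 passed in neither direction. Over all tested genes 13.4% were called lower, so 1 of 8 lower is near that share. In either direction 34.4% were called, and 21.0% were called higher, where 0 of the 8 antenna genes were. The ELIP gene went from 485 ± 120 to 140 ± 18.9 FPKM (SD, n = 3 each), 3.46-fold lower. The antenna gene VIT_218s0001g10550, the lowest of the 8 by mean in both groups, went from 102 ± 5.13 to 61.0 ± 5.52 FPKM (SD, n = 3 each), 1.68-fold lower. The other 7 antenna genes varied up to 2.53-fold among the 3 control libraries, where control library 1 was the lowest for all 7. Without that library the log2 changes of all 7 were lower, and the calls of some but not all of them changed. Then 5 of the 8 antenna genes were called lower. As shares of the summed antenna level, 4 of the 8 genes did not overlap between groups and 4 did. The levels of 51.4% of all tested genes did not overlap, so 4 of 8 is near that figure. No background was computed for shares. VIT_219s0014g00160 averaged 3.11% in control and 4.88% in cold, and VIT_212s0028g00320 35.8% and 31.6%. These shares were compared after the levels had been seen, and their exact permutation p was 0.1 (n = 3 each; 0.2 adjusted over 8 shares).

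Library totals recovered from the steps of the FPKM values ran from 16437001 to 21217704 reads, with all 3 cold libraries deeper than all 3 controls. The rarest member still had at least 1078 reads in every library. Counting error was therefore at most 3.05% of any member's level, far below the group differences of the 2 members called. Some gaps between single libraries lay within it, such as 105.8 and 105.1 FPKM for VIT_218s0001g10550 in control libraries 1 and 3. No pair of libraries agreed within counting noise. Control library 1 was below 0.6 times the mean of control libraries 2 and 3 for 7.75% of tested genes, and for 55 of the 874 genes averaging 100 FPKM or more (6.29%). Of the 8 antenna genes, 6 were below 0.6 times that mean. FPKM is scaled to library size, so these values say nothing of the total RNA.

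**Figure D1:**
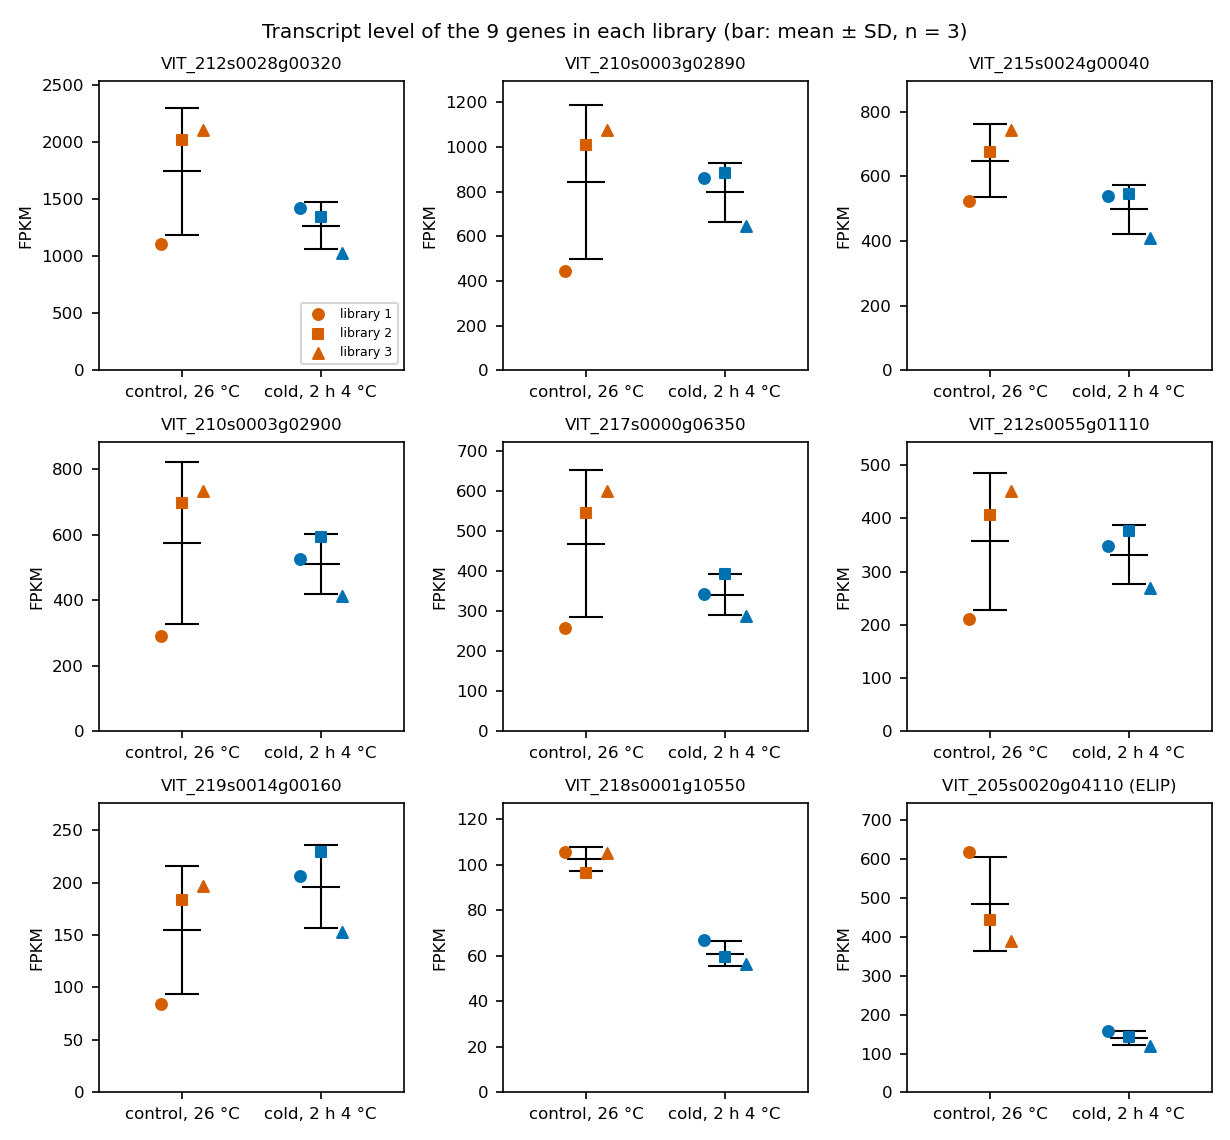
FPKM (vertical axes, from 0) of each of the 9 genes in the 3 control libraries at 26 °C (orange) and the 3 cold libraries after 2 h at 4 °C (blue), with the mean and SD of each group and a symbol for each library number. Control library 1 lies far below control libraries 2 and 3 in 6 antenna genes, and less so in VIT_215s0024g00040. It is the highest control library in the ELIP gene, and within counting error of control library 3 in VIT_218s0001g10550. In both of these genes the groups do not overlap.

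The ELIP gene, VIT_205s0020g04110, carries chromosome field 5 in its identifier. It stood at 620, 445 and 390 FPKM in control libraries 1, 2 and 3, and at 158, 143 and 120 FPKM in cold libraries 1, 2 and 3. Every cold library was below every control library, and the highest control level came from the library in which most antenna genes were lowest. The log2 change of FPKM + 1 was -1.77 with a standard error of 0.19 and a 95% interval from -2.22 to -1.31 (limma-trend, adjusted p = 0.0012). Of all tested genes, 34.4% were called in either direction by the same rule, 13.4% lower and 21.0% higher. The gene was among the most abundant transcripts in warm leaves, ranking between 79 and 146 of all identifiers in the control libraries, and ranked between 519 and 716 in the cold libraries. Its share of all reads went from 0.0539% ± 0.0133 to 0.0156% ± 0.00210 (SD, n = 3 each). In bulk RNA, fewer cells of a type and less RNA per cell cannot be told apart. Without control library 1, the highest control, the log2 change was -1.57 (limma-trend, adjusted p = 0.00042).

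The antenna gene that passed the test, VIT_218s0001g10550 of chromosome field 18, was also the steadiest among control libraries. Its levels were 106, 96.5 and 105 FPKM in control libraries 1, 2 and 3, and 67.1, 59.4 and 56.4 FPKM in cold libraries 1, 2 and 3. The groups did not overlap, and control library 1 did not stand apart. Its log2 change was -0.74 with a standard error of 0.09 and a 95% interval from -0.96 to -0.53 (limma-trend, adjusted p = 0.0019). It and the ELIP gene were the 2 members out of 9 whose groups did not overlap. Across all tested genes the groups did not overlap for 51.4%, and for 19.7% they were separate with cold lower.

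The most abundant antenna gene was VIT_212s0028g00320, of chromosome field 12, which led the 9 genes in every library. It stood at 1104, 2014 and 2107 FPKM in control libraries 1, 2 and 3, and at 1419, 1344 and 1031 FPKM in cold libraries 1, 2 and 3. Control libraries 2 and 3 lay above all 3 cold libraries, and control library 1 lay among the cold ones. The log2 change of -0.42 had a 95% interval from -1.07 to 0.24 and did not pass (limma-trend, adjusted p = 0.28). VIT_217s0000g06350, of chromosome field 17, showed the same arrangement except that control library 1 was below all the cold libraries. It read 260, 545 and 602 FPKM in control libraries 1, 2 and 3 and 345, 392 and 289 FPKM in cold libraries 1, 2 and 3. Its log2 change was -0.37, with a 95% interval from -1.14 to 0.39 (limma-trend, adjusted p = 0.40).

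VIT_215s0024g00040, of chromosome field 15, varied less among controls than these. It stood at 524, 676 and 745 FPKM in control libraries 1, 2 and 3, and at 538, 547 and 410 FPKM in cold libraries 1, 2 and 3. Control library 1 was again the lowest control, at 0.738 times the mean of the other 2 controls, and fell within the cold range. The log2 change of -0.37 had a 95% interval from -0.79 to 0.04 (limma-trend, adjusted p = 0.14).

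VIT_210s0003g02890 and VIT_210s0003g02900, of chromosome field 10, follow each other in the numbering and may be near-identical copies. The treatment of reads that match both is unknown, so the level of each is uncertain. The first stood at 446, 1008 and 1078 FPKM in control libraries 1, 2 and 3, and at 864, 884 and 647 FPKM in cold libraries 1, 2 and 3. The second stood at 291, 698 and 734 FPKM in the controls and at 524, 594 and 412 FPKM in the cold libraries, in the same order. In both genes, control library 1 was the lowest and control libraries 2 and 3 the highest of the 6. The first was between 1.45 and 1.65 times the second in every library, so the pair kept nearly the same ratio while their levels ranged over more than 2-fold. Their log2 changes were 0.01 (95% interval from -0.82 to 0.84) and -0.07 (95% interval from -0.94 to 0.80), with limma-trend adjusted p of 0.99 and 0.90. These intervals hold changes of over 1.5-fold in either direction.

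VIT_212s0055g01110, a further gene of chromosome field 12, had nearly equal group means. It stood at 211, 407 and 452 FPKM in control libraries 1, 2 and 3, and at 348, 377 and 270 FPKM in cold libraries 1, 2 and 3. The cold libraries lay between the low control and the high ones. Its log2 change was -0.04, with a 95% interval from -0.75 to 0.67 (limma-trend, adjusted p = 0.92). VIT_219s0014g00160, of chromosome field 19, was the only member with a higher mean level in the cold. It stood at 84.7, 183 and 197 FPKM in control libraries 1, 2 and 3, and at 206, 229 and 153 FPKM in cold libraries 1, 2 and 3. Cold libraries 1 and 2 were above every control, and cold library 3 was below control libraries 2 and 3. The log2 change of 0.41 had a 95% interval from -0.39 to 1.21 and did not pass (limma-trend, adjusted p = 0.38).

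The 8 antenna genes together had a median log2 change of -0.22, against 0.08 over all tested genes. Their order among libraries was shared: control library 3 was the highest and control library 1 the lowest control for 7 of the 8, where control library 1 was the lowest for 42.1% of tested genes. All 8 were lowest in cold library 3 among the cold libraries, against 27.7% of tested genes. On the log2(FPKM + 1) scale the median SD among control libraries was 0.63 for the 8 genes and 0.15 for all tested genes. Among cold libraries it was 0.25 and 0.12.

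Leaving out control library 1, which was 1 of the 6 such settings run, left 2 controls. That library was the lowest control for 7 of the 8 antenna genes, so its removal lowered their changes by construction. The spread among their remaining controls was also smaller. Then 5 of the 8 antenna genes were called lower and 0 higher (limma-trend, adjusted p), and with the ELIP gene 6 of the 9. By the same fit 16.0% of tested genes were called lower, and 24.4% higher. VIT_217s0000g06350 then had a log2 change of -0.75 (adjusted p = 0.0068), VIT_212s0028g00320 of -0.72 (adjusted p = 0.013), VIT_215s0024g00040 of -0.52 (adjusted p = 0.030) and VIT_210s0003g02900 of -0.50 (adjusted p = 0.044). VIT_210s0003g02890 and VIT_212s0055g01110 stood at -0.40 and -0.38 and did not pass (adjusted p = 0.083 and 0.088), and VIT_219s0014g00160 stood at 0.03 (adjusted p = 0.92). The median over the 8 genes was -0.51. When each of the other 5 libraries was left out in turn, the ELIP gene and VIT_218s0001g10550 were called and no other member was. Control libraries 2 and 3 were both above all 3 cold libraries for 7 of the 8 genes before any test, an arrangement found for 26.0% of tested genes.

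Cold library 3, the lowest cold library for these genes, widens the spread on the other side. With both control library 1 and cold library 3 left out, a setting chosen after these values were seen and which narrows the spread by its construction, 6 of the 8 antenna genes were called lower, where 17.9% of tested genes were called lower and 23.7% higher. VIT_210s0003g02890 joined them, with a log2 change of -0.25 (limma-trend, adjusted p = 0.043). The change of VIT_212s0055g01110 was -0.24 and that of VIT_219s0014g00160 was 0.19, and neither passed (adjusted p = 0.067 and 0.11). Whether the control level of the antenna genes is better given by library 1 or by libraries 2 and 3 was not tested.

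**Figure D2:**
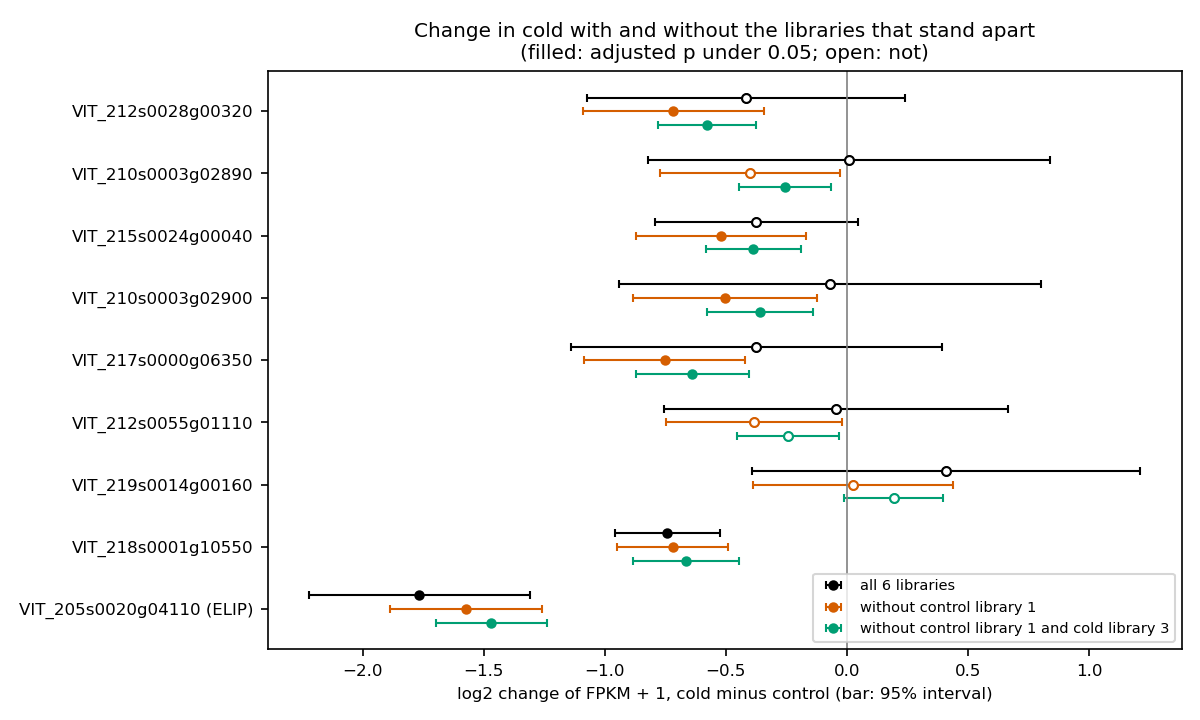
Log2 change of FPKM + 1, cold minus control (horizontal axis), of the 9 genes with 95% intervals, from all 6 libraries (black), without control library 1 (orange) and without control library 1 and cold library 3 (green); filled points passed an adjusted p of 0.05. The ELIP gene and VIT_218s0001g10550 lie below 0 and are filled in all 3 fits, while the intervals of the other 7 genes narrow and move to the left when control library 1 is left out. That library was the lowest control for these 7, so the move to the left follows from its removal.

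The summed level of the 8 antenna genes shows the same arrangement. It was 3025, 5628 and 6020 FPKM in control libraries 1, 2 and 3, and 4311, 4428 and 3269 FPKM in cold libraries 1, 2 and 3. Control library 1 was the lowest of the 6 and the other controls the highest. As a share of all reads the sum was 0.590% ± 0.186 in control and 0.480% ± 0.0757 in cold (SD, n = 3 each), a difference smaller than the spread among controls. The ELIP gene did not follow this sum. Its level was 20.5%, 7.91% and 6.48% of the antenna sum in control libraries 1, 2 and 3, and 3.65%, 3.22% and 3.67% in cold libraries 1, 2 and 3, so that every cold library lay below every control library.

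**Figure D3:**
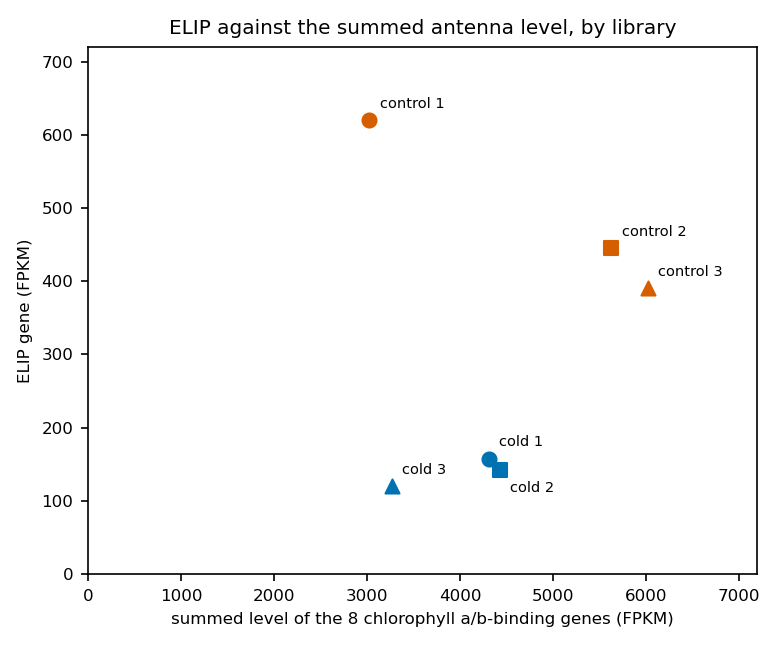
Level of the ELIP gene (vertical axis, FPKM) against the summed level of the 8 antenna genes (horizontal axis, FPKM) in each library, control in orange and cold in blue. Control library 1 joins the lowest antenna sum, 3025 FPKM, with the highest ELIP level, 620 FPKM, while the cold libraries keep ELIP between 120 and 158 FPKM at antenna sums from 3269 to 4428 FPKM.

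Shares within the family compare the 8 genes with each other in the same library, so that only a factor common to all of them drops out. The low level of control library 1 was not common to all 8. It was 1.05 times the mean of the other controls in VIT_218s0001g10550 and 0.738 times in VIT_215s0024g00040, but under 0.6 times in 6 genes. Shares in control library 1 therefore still carry this difference. These comparisons were chosen after the levels had been seen. VIT_219s0014g00160 made up 2.80%, 3.26% and 3.27% of the summed antenna FPKM in control libraries 1, 2 and 3, and 4.78%, 5.18% and 4.68% in cold libraries 1, 2 and 3. VIT_210s0003g02890 made up 14.7%, 17.9% and 17.9% in the controls and 20.0%, 20.0% and 19.8% in the cold libraries. VIT_212s0055g01110 made up 6.98%, 7.24% and 7.51% in the controls and 8.08%, 8.52% and 8.27% in the cold libraries. For these 3 genes every cold library was above every control library, control library 1 included.

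The share of VIT_212s0028g00320, the most abundant antenna gene, lay the other way. It was 36.5%, 35.8% and 35.0% in control libraries 1, 2 and 3, and 32.9%, 30.4% and 31.5% in cold libraries 1, 2 and 3, without overlap. For each of these 4 genes the two-sided exact permutation test over libraries gave p = 0.1 (n = 3 each), the smallest that 3 against 3 can give, and 0.2 after adjustment over the 8 shares compared. This exact test therefore cannot pass a threshold of 0.05 with these libraries, and no other test of the shares was run. No background was computed for shares, but the levels of 51.4% of tested genes did not overlap between groups. The remaining 4 genes overlapped between groups in their shares, and 3 of them (VIT_218s0001g10550, VIT_215s0024g00040 and VIT_210s0003g02900) had control library 1 far from both other controls. VIT_218s0001g10550 made up 3.50% in control library 1 against 1.72% and 1.75% in control libraries 2 and 3, and between 1.34% and 1.72% in the cold libraries. VIT_215s0024g00040 made up 17.3% in control library 1 and between 12.0% and 12.6% in the other 5 libraries. The shares of a sum are tied to each other, since 1 can be larger only where others are smaller. VIT_219s0014g00160 and VIT_212s0028g00320 were picked for a direct ratio after their shares had been seen to lie apart in opposite directions. The ratio was therefore bound to separate the groups, and its exact p was fixed beforehand. The level of the first was 7.68%, 9.11% and 9.34% of the second in control libraries 1, 2 and 3. In cold libraries 1, 2 and 3 it was 14.5%, 17.1% and 14.8% (exact permutation p = 0.1, n = 3 each).

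**Figure D4:**
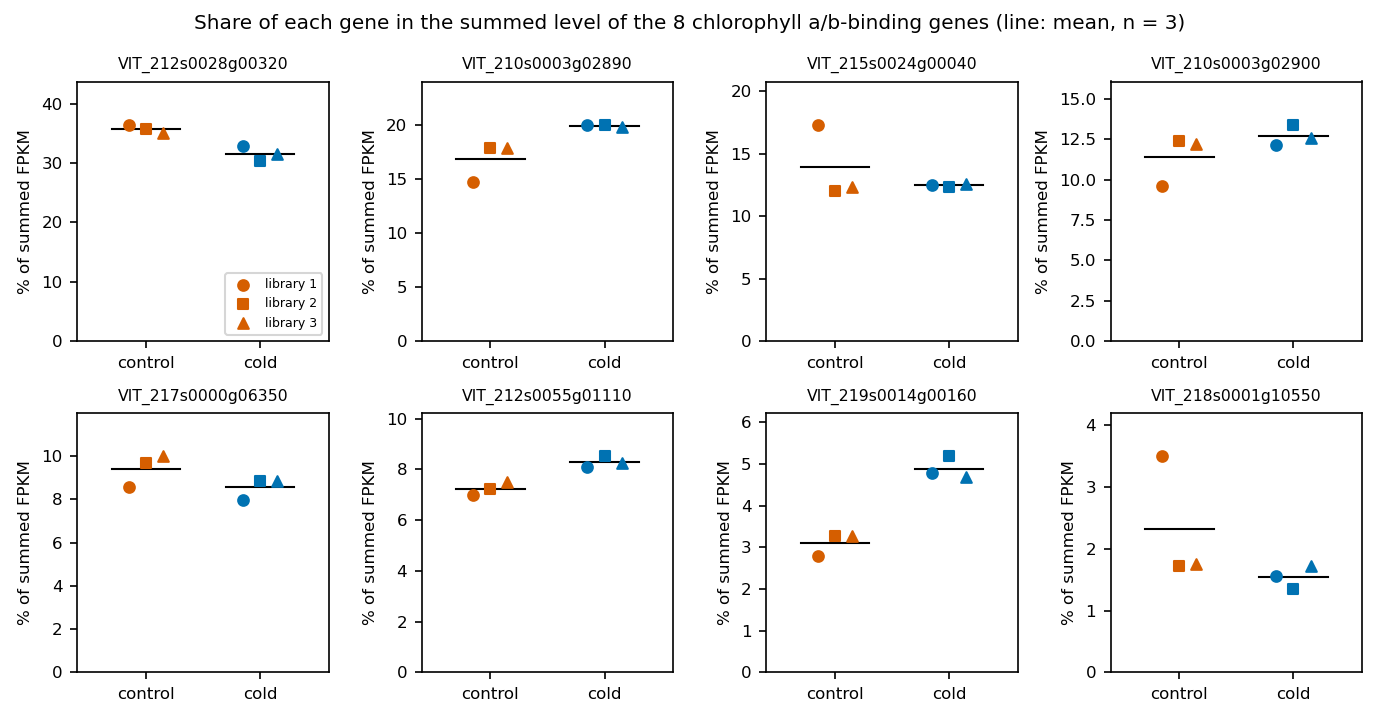
Share of each of the 8 chlorophyll a/b-binding genes in their summed FPKM (vertical axes, percent, from 0) in each control (orange) and cold (blue) library, with group means as lines. The groups are apart for VIT_212s0028g00320, VIT_210s0003g02890, VIT_212s0055g01110 and VIT_219s0014g00160. Control library 1 lies well above all other libraries for VIT_215s0024g00040 and VIT_218s0001g10550. It lies well below them for VIT_210s0003g02900 and VIT_210s0003g02890.

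In the order of the levels per length, VIT_212s0028g00320 was above every other member in each group without overlap of ranges. VIT_218s0001g10550 had the lowest mean in each group, but in control library 1 VIT_219s0014g00160 was lower still. In control, the ranges of VIT_210s0003g02890, VIT_215s0024g00040, VIT_210s0003g02900, the ELIP gene, VIT_217s0000g06350 and VIT_212s0055g01110 each overlapped with that of the next in this list, and the ranges of VIT_219s0014g00160 and VIT_218s0001g10550 overlapped. In cold, VIT_210s0003g02890 was clear of the next gene. The pair VIT_210s0003g02900 and VIT_215s0024g00040 overlapped, as did VIT_217s0000g06350 and VIT_212s0055g01110. The ELIP gene took place 5 of 9 by mean level in control and place 8 in cold, where its range overlapped that of VIT_219s0014g00160 and lay above that of VIT_218s0001g10550.

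The genes most like the ELIP gene were sought among the 8660 identifiers that averaged 10 FPKM or more by Pearson's r of log2(FPKM + 1) over the 6 libraries. The closest were VIT_207s0104g00120 (r = 0.998) and VIT_200s0193g00020 (r = 0.997), followed by a gene of chromosome field 18 (r = 0.996). VIT_207s0104g00120 stood at 26.6, 21.9 and 20.3 FPKM in control libraries 1, 2 and 3 and at 9.32, 9.21 and 8.09 FPKM in cold libraries 1, 2 and 3. VIT_200s0193g00020 stood at 85.0, 63.8 and 58.0 FPKM in the controls and at 19.6, 16.6 and 15.7 FPKM in the cold libraries. Both share with the ELIP gene the order of libraries within each group. The third gene fell less, from a mean of 39.2 FPKM in control to 31.2 FPKM in cold. All 3 were picked for their likeness to the ELIP gene, so the likeness and the shared order are no result. Since the groups lie apart, a high r mostly reflects the difference between them, and 404 genes reached at least 0.95. VIT_218s0001g10550 was the antenna gene nearest to the ELIP gene (r = 0.974), and the other 7 ranged from -0.56 to 0.60.

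Against the summed antenna level, 38 of these 8660 identifiers reached an r of at least 0.95. They include antenna genes that are themselves terms of the sum: VIT_217s0000g06350, VIT_212s0028g00320, VIT_212s0055g01110 and VIT_210s0003g02900 (r from 0.960 to 0.984). The closest were VIT_212s0059g00270 (r = 0.992), VIT_210s0003g04350 (r = 0.987) and VIT_217s0000g01860 (r = 0.986), none of them a member or called by the test. VIT_210s0003g04350 stood at 191, 304 and 352 FPKM in control libraries 1, 2 and 3 and at 248, 265 and 190 FPKM in cold libraries 1, 2 and 3. As in the antenna sum, control libraries 2 and 3 were above every cold library and control library 1 was not. These genes were picked for their likeness to the sum, so the likeness itself is no result.

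The identifiers just before and after the members in the numbering give the local context. Of 16 such neighbours that were not members, 11 had a mean under 10 FPKM, 14 were tested, 2 were called higher and 1 lower (background 34.4% in either direction). The exceptions in level lay beside antenna genes, as did most of the 16 neighbours. The identifier before VIT_210s0003g02890 stood at 106, 213 and 226 FPKM in control libraries 1, 2 and 3 and at 180, 184 and 139 FPKM in cold libraries 1, 2 and 3, and the identifier before VIT_219s0014g00160 at 23.6, 50.7 and 54.6 FPKM and at 58.6, 63.8 and 42.7 FPKM. Each had control library 1 lowest and repeated the library order of the member beside it. Control library 1 was the lowest control for 42.1% of tested genes. The other 3 neighbours above 10 FPKM had control library 1 as the highest control. The identifier after VIT_219s0014g00160, which was called higher, stood at 31.9, 28.4 and 28.9 FPKM in control libraries 1, 2 and 3 and at 45.9, 39.1 and 33.8 FPKM in cold libraries 1, 2 and 3. The identifier after VIT_218s0001g10550 stood at 56.8, 30.3 and 28.0 FPKM in the controls, and the one before VIT_217s0000g06350 at 15.2, 14.3 and 11.6 FPKM. Whether any of these are further copies or overlap the member was not tested. The identifier after VIT_218s0001g10550 was the neighbour called lower, with 38.4 ± 16.0 FPKM in control and 16.1 ± 1.98 FPKM in cold (SD, n = 3 each; log2 change -1.14, limma-trend, adjusted p = 0.017). Both neighbours of the ELIP gene were low, at means of 5.75 and 4.20 FPKM over the 6 libraries, and the former was called higher in the cold (log2 change 0.32, limma-trend, adjusted p = 0.035). The fall of the ELIP gene was thus not shared by either of them.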

How the data were processed

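RNA sequencing of 6 leaf libraries (3 control, 3 cold) was analysed from the authors' deposited table of FPKM values, whose columns carry the sample titles. The submitters' processing notes list DESeq2, HTSeq, STAR, cutadapt and FastQC with no versions or roles. Genome build, annotation, strand setting and the treatment of shared reads were not stated. Genes averaging 1 FPKM or more over the 6 libraries (17155) were compared by limma-trend on log2(FPKM + 1), two-sided; p-values were adjusted over all of them by Benjamini-Hochberg, with calls at an adjusted p under 0.05. This scale understates the change of low genes. FPKM values are whole multiples of a step per gene and library. The steps gave library totals and whole reads for 25054 of 25054 identifiers above 0 (within 0.001 reads), used for depth and an alternative fit. The smallest gene length that gave whole reads was taken, so reads that share a divisor in all libraries may be too low. The reads summed to between 99.4% and 99.6% of the library totals. The fit was tested on simulated data. Members and lists were chosen with earlier results of these data known. Members of the list are named in full; other named genes are the nearest by correlation. Lists of photosynthesis and marker genes, defined by annotated names, had no members because the files hold no names, and no sequences are shown. Software was Python 3.11.15 (SciPy 1.17.1, matplotlib 3.10.9, pandas 2.3.3, numpy 2.4.6) and R 4.3.3 with limma 3.58.1.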

Additional observations from a re-analysis of the deposited data

How the results depend on the processing

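The ELIP gene and VIT_218s0001g10550 kept their direction and their call in all 14 alternatives (log2 changes from -1.91 to -1.47 and from -0.83 to -0.67, highest limma adjusted p 0.0088 and 0.013). The setting without control library 1 and cold library 3 was chosen after the values were seen, and it gave the ends of -1.47 and -0.67. Of the other antenna genes, those with a change near 0 turned sign. VIT_210s0003g02890 stood at -0.084 after median-of-ratios scaling, from -0.40 to 0.24 when each library was left out in turn (below 0 without control library 1, at -0.40, cold library 1, at -0.06, and cold library 2, at -0.07) and at -0.25 without control library 1 and cold library 3. VIT_210s0003g02900 ranged from -0.50 to 0.16 (0.13 without control library 2, 0.16 without control library 3 and 0.07 without cold library 3), and VIT_212s0055g01110 from -0.38 to 0.16 (0.09, 0.16 and 0.10 in the same order). Members called lower numbered 2 to 6 with a library left out, 6 of them without control library 1, and 7 without control library 1 and cold library 3; members called higher numbered 0 throughout. The cause was not tested. The log2 ratio of the antenna sum, cold to control, was -0.29, from -0.54 to -0.11 with a library left out. Genes called over the whole table numbered 3606 higher and 2295 lower (2807 and 2922 after median-of-ratios scaling, 2660 and 3183 after quantile normalization, 4059 and 3069 without control library 1 and cold library 3) and ranged from 2253 to 4180 and from 1425 to 2746 with a library left out. In the fit with a replicate block, 2480 were higher and 1627 lower, and 2 members lower as before; libraries of the same number did not move together around their group means (correlations -0.26, -0.13 and -0.28), and 0 of 3 control libraries correlated best with its own number. Counts of the photosynthesis lists were not run, since the files hold no gene names. Counting error was at most 3.05% of any member's level.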
